A study of Mus musculus with 8 samples.

Results

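Heat shock proteins and their partner chaperones bind proteins that are not yet folded, or that have come unfolded, and help them fold, reach their compartment or be degraded. The genes described here were chosen by symbol alone: every HSP70, HSP110, HSP90, small heat shock protein, chaperonin, J protein and BAG gene with a numbered symbol in the files, plus the heat shock transcription factor genes Hsf1 and Hsf2 and the chaperonin subunit gene Tcp1. They numbered 88 of the 17276 genes listed. The read counts of Hspa1a and Hspa1b, near-identical neighbouring copies, were summed, which left 87 entries, and 74 of these had enough counts to be tested. The libraries were made from hepatocytes of wild-type male C57BL/6N mice aged 6 to 8 weeks. Of the 8 libraries, 4 came from cells kept static and 4 from cells under shear stress, the drag of flowing liquid on the cell surface. The labels state neither the strength nor the length of the stress, nor if each library stands for its own animal or culture, so p-values reflect the spread of these samples alone and that spread may be technical. No further genotype or agent is given for either group.

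In the textbook account, HSP70 holds a client protein in cycles driven by ATP. J proteins bring the client and start each cycle, and HSP110 and BAG proteins end it by exchanging the nucleotide. Clients may then pass to HSP90 or to the barrel-shaped chaperonins, while small heat shock proteins keep unfolded proteins soluble without ATP. When unfolded protein accumulates, the transcription factor HSF1 binds heat shock elements, repeats of GAA and its reverse TTC, in front of the inducible genes. A separate element, bound after stress in the endoplasmic reticulum (ER), lies in front of many ER chaperone genes. Hepatocytes, which secrete most plasma proteins, carry large amounts of the ER chaperones.

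Shear stress libraries differed from static libraries in 34 of the 74 tested entries, 17 higher and 17 lower. This is 45.9% of them, against 48.6% of the 11746 genes tested, of which 24.9% were higher and 23.7% lower. The counts of each class given below stand beside these shares. The share called was close to that of all genes and is no result about the family, and its median log2 fold change was -0.04, against -0.01 for all tested genes. The inducible HSP70 genes Hspa1a and Hspa1b fell together 16.3-fold, the HSP110 gene Hspa4l fell 5.44-fold and the small heat shock protein gene Hspb8 fell 3.37-fold, whereas the abundant HSP90 genes and most chaperonin subunits were not called. Of the calls, 7 were 2-fold or larger, 5 lower and 2 higher, or 9.46% of those tested against 17.3% of all tested genes. With the replicate number as a block in edgeR's test, the HSP90 gene Hsp90ab1 was also called lower (-0.30, adjusted p = 0.00139).

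**Figure D1:**
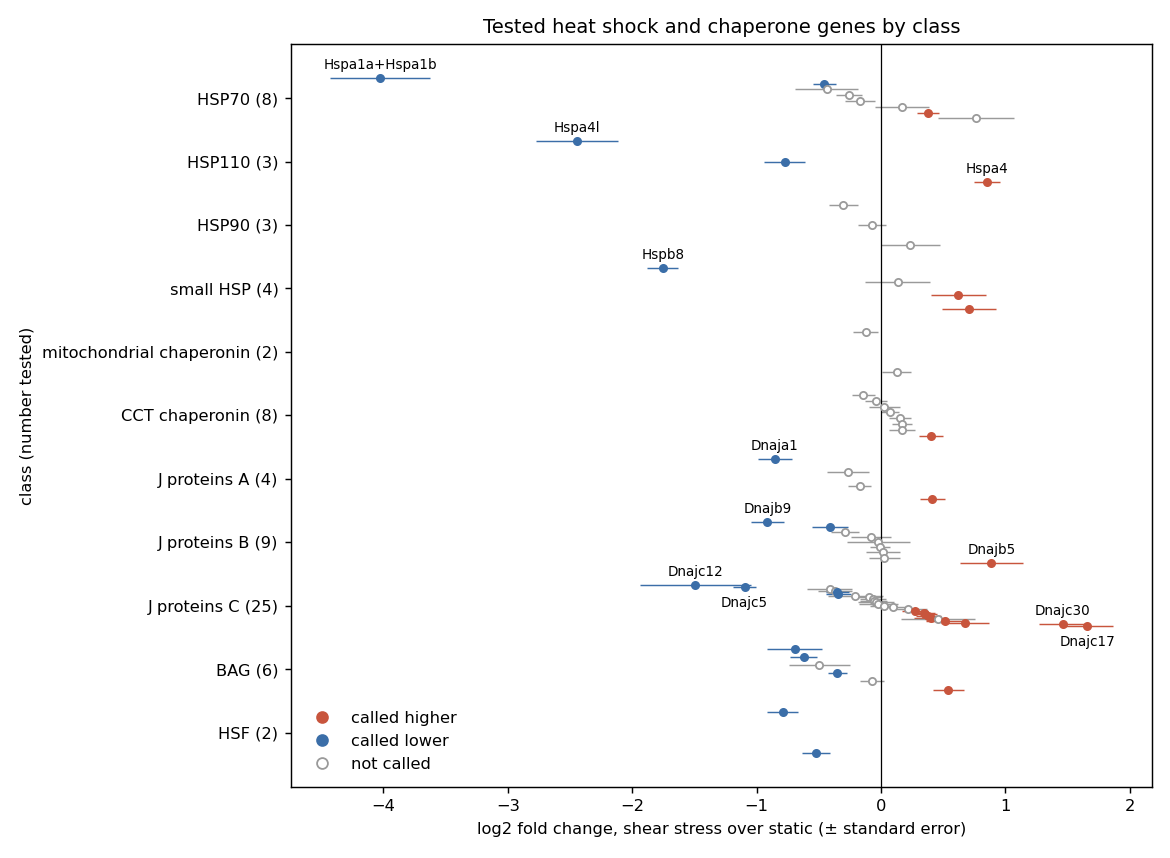
Log2 fold change of shear stress over static (horizontal axis, bars are standard errors) for the 74 tested entries, in rows by class; filled points passed an adjusted p of 0.05, red higher and blue lower, and open points did not. The 3 largest falls are the summed Hspa1 copies, Hspa4l and Hspb8, and the 2 largest rises are the J protein genes Dnajc17 and Dnajc30.

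The direction of small changes depends on how the libraries are scaled. With TMM factors, which assume that most genes do not change, the 34 calls split into 17 higher and 17 lower. With library totals the calls, some of them of other entries, were 25 higher and 10 lower, against 35.4% and 13.1% of all tested genes. With upper quartile factors 21 were higher and 13 lower (31.1% and 16.8%), and with log2(FPKM + 1) 24 and 10 (35.6% and 12.8%). The median over all tested genes went from -0.01 to 0.216, 0.13 and 0.176 on the log2 scale under the same 3 settings. All 17 higher calls kept their direction and call with library totals and upper quartile factors, and of the 17 lower calls 10 did with library totals and 13 with upper quartile factors. Without shear stress replicate 4, 11 entries were higher and 13 lower, against 20.6% and 18.5% of all tested genes. With the replicate number as a block, 19 were higher and 24 lower, against 30.1% and 31.0%. Across the 16 other settings tried, 20 of the 34 called entries were called in the same direction in each setting that tested them. The matching share over all tested genes is not given here, so this count is no result about the family.

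**Figure D2:**
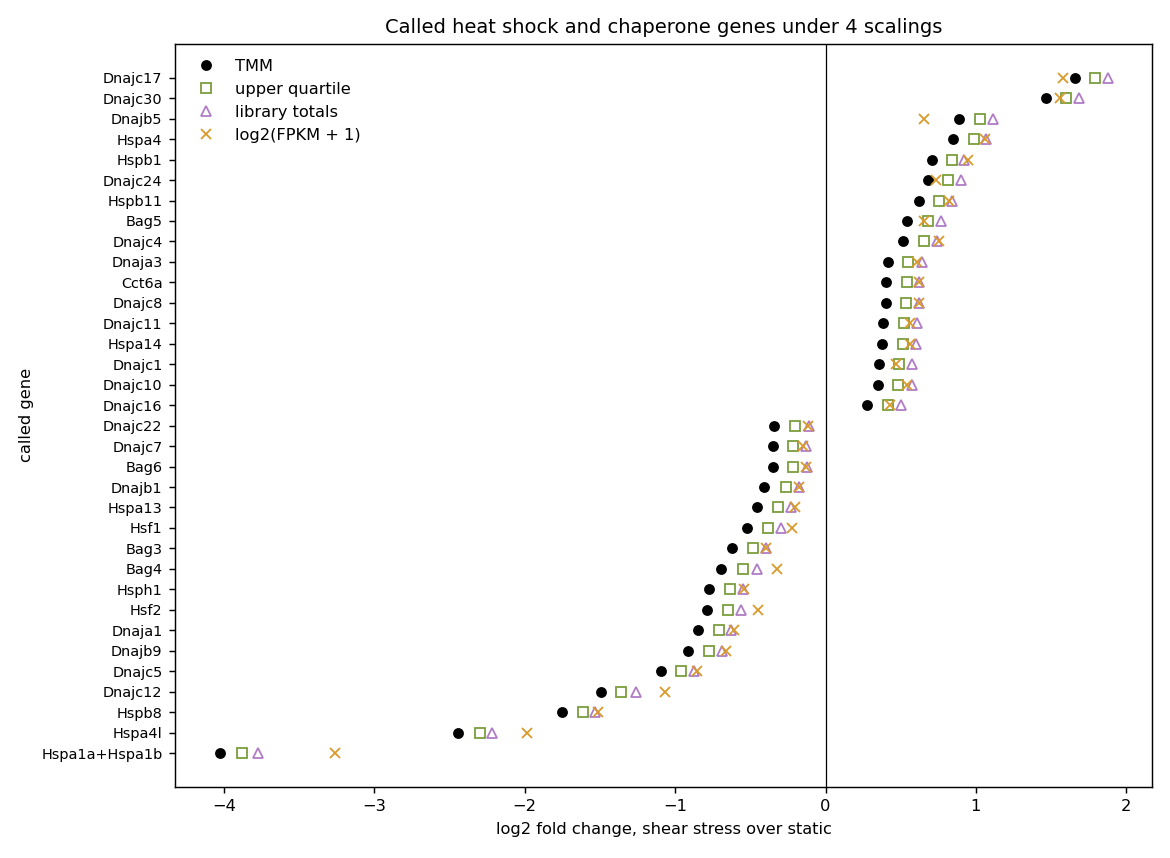
Log2 fold change of shear stress over static (horizontal axis) for the 34 called entries (rows) with 4 ways of scaling the libraries, shown by marker shape. All 34 entries kept their side of 0 under these 4 scalings, and the lower entries moved towards it.

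Promoter sequences from RefSeq (GRCm38.p6), covering 250 bases before to 50 after an annotated start site, were matched for 72 of the 88 genes. The others were Bag4, Cct4, Dnajc11, Dnajc12, Dnajc18, Dnajc2, Dnajc22, Dnajc30, Dnajc5, Hsf1, Hsp90aa1, Hsp90ab1, Hspa13, Hspa8, Hspa9 and Hspb2. The copies Hspa1a (chr17:34972227-34972376, minus strand) and Hspa1b (chr17:34959309-34959458, minus strand) are shown first, from 220 to 71 bases before the start, because they fell most. Capitals mark 2-unit heat shock elements, GAA and TTC in either order with 2 bases of any kind between them, which read the same way on both strands.
Hspa1a: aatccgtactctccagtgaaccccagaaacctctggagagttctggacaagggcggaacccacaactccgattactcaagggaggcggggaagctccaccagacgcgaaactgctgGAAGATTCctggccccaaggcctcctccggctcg
Hspa1b: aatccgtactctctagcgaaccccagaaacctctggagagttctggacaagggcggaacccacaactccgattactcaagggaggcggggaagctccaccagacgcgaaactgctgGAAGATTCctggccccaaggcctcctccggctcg
Over the 250 bases before the start, these promoters differed at 3 bases and were 98.8% identical.

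Further stretches show the element in front of genes that fell, rose or were not called. Dnaja1 (chr4:40722308-40722387, plus strand) and Hsph1 (chr5:149636361-149636426, minus strand) fell, Hspb1 (chr5:135887769-135887848, plus strand) rose, and Hspe1 (chr1:55088028-55088107, plus strand) was not called.
Dnaja1: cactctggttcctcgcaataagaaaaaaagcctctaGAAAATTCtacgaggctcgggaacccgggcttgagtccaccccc
Hsph1: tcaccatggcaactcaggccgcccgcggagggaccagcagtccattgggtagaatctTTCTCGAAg
Hspb1: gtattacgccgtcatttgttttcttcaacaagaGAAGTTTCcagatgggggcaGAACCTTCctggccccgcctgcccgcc
Hspe1: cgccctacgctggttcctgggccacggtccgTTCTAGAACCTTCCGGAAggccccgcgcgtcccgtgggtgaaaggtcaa
The stretch of Hspe1 also lies in front of Hspd1, which is read the opposite way from a start site 216 bases away, and holds overlapping elements of 3 units (GAA, TTC and GAA, or TTC, GAA and TTC, with 2 bases of any kind between units). A 2-unit element was in 20 of the 72 matched genes, or 27.8%, in 16.97% of the 27025 genes in the promoter table and in 13.9% of its genes that were tested here. Among the matched members it was in 5 of 11 entries that fell (Bag3, Dnaja1, Hspb8, Hsph1 and the summed copies Hspa1a and Hspa1b, counted as 1), 3 of 15 that rose (Cct6a, Dnajc10 and Hspb1) and 9 of 33 that were not called. A 3-unit element, which contains the 2-unit one, was in 4 members (Dnajb6, Hspd1, Hspe1 and Hsph1) and in 0.662% of all genes in the table. Only exact matches were counted, so elements with a changed letter were missed. The 2-unit elements of Bag3, Hspb8 and Cct6a and the 3-unit element of Hsph1 lay after a start site. A match of letters is a description and not a measurement of binding.

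The ER stress element, CCAAT and CCACG with 9 bases of any kind between them, searched on both strands, was in 3 members, Hspa5, Hsp90b1 and Dnajc3, and in 0.137% of all genes in the table. It is printed in capitals for Hspa5 (chr2:34771990-34772059, plus strand), Hsp90b1 (chr10:86705515-86705584, minus strand, element in reverse) and Dnajc3 (chr14:118937792-118937861, plus strand), the 3 members that hold it and whose values are given with the ER members.
Hspa5: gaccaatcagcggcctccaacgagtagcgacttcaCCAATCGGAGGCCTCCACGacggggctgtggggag
Hsp90b1: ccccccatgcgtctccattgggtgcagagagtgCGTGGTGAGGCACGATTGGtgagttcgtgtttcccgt
Dnajc3: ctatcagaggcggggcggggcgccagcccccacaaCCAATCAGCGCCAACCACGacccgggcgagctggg

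The transcription factor genes were both lower under shear stress. Hsf1, the gene of the main heat shock factor (chromosome 15, 76477362 to 76501155), was at 43.8, 48.3, 48.2 and 36.5 normalised CPM (read counts per library size after TMM scaling) in static replicates 1 to 4 and at 31.2, 31.0, 30.4 and 30.6 CPM under shear stress. The groups did not overlap, as was the case for 45.3% of all tested genes and for 32 of the 74 entries (43.2%), and the log2 fold change was -0.52 ± 0.11 (standard error, adjusted p = 0.00367 by edgeR's quasi-likelihood test). With library totals this call was lost (-0.30, adjusted p = 0.0607). Hsf2, a related factor (chromosome 10, 57483766 to 57513143), was at 44.5, 43.0, 50.03 and 34.1 CPM in static and 26.4, 24.2, 24.9 and 23.8 CPM in shear stress libraries. Its groups did not overlap either, and it fell by 0.79 ± 0.12 on the log2 scale (adjusted p = 0.000855) and was still called with library totals (-0.56).

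Of 8 tested HSP70 entries, 2 fell, 1 rose and 5 were not called. With the replicate numbers as a block, 4 fell, beside 31.0% of all tested genes. The inducible copies Hspa1a (chromosome 17, 34969359 to 34972156) and Hspa1b (chromosome 17, 34956429 to 34959238), whose promoters are printed above, summed to 60.0, 68.5, 183 and 89.7 CPM in static replicates 1 to 4 and to 4.51, 7.62, 7.39 and 4.98 CPM under shear stress. Every shear stress library lay below every static one, and static replicate 3 stood above the other static libraries. The sum changed by -4.03 ± 0.40 (adjusted p = 0.000139), and by -3.57 without static replicate 3. Most of the reads were assigned to Hspa1b, at 91.6 ± 51.9 CPM in static libraries against 8.69 ± 5.07 CPM for Hspa1a (SD, n = 4), a division that is uncertain between such similar sequences.

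The constitutive partner Hspa8, the most abundant member in TPM, was not called. It was at 3549.7, 3366, 3184 and 3390.1 CPM in static replicates 1 to 4, and at 3320.1, 3009, 2388 and 3277 CPM under shear stress. The groups overlapped, and its log2 fold change was -0.17 ± 0.12 (adjusted p = 0.269), a call that was made with the replicate block (-0.18, adjusted p = 0.0424) and whose direction reversed with library totals (0.05). In each library the share of the inducible copies in the FPKM of Hspa1a, Hspa1b and Hspa8 together is free of any scaling between libraries. This share was 1.20%, 1.45%, 3.98% and 1.87% in static replicates 1 to 4 and 0.098%, 0.182%, 0.223% and 0.110% under shear stress. The mean share was 2.13% ± 1.27 without and 0.153% ± 0.0594 with shear stress (SD, n = 4), 13.9-fold apart. A two-sided exact permutation test gave p = 0.0286, the smallest that 4 against 4 libraries allow. The share was lower under shear stress in all 4 same-numbered pairs, and the exact permutation test within pairs gave p = 0.125, the smallest that 4 pairs allow, so no call could be made with the pairing.

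**Figure D3:**
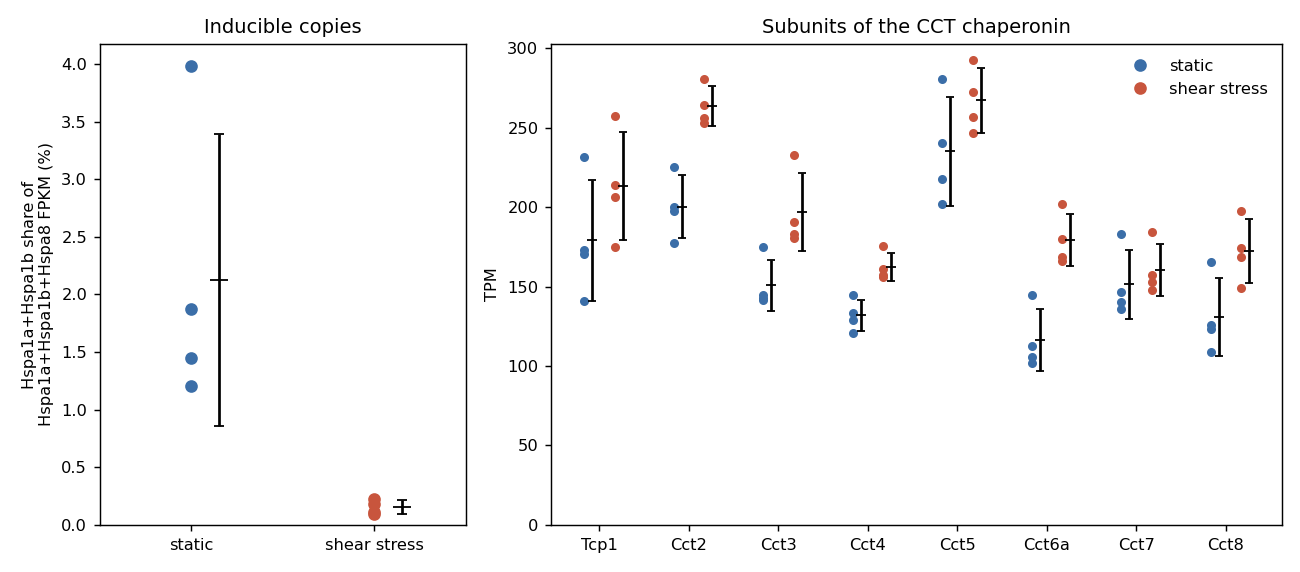
Left, the share (percent) of Hspa1a plus Hspa1b in the FPKM of Hspa1a, Hspa1b and Hspa8 per library, and right, the TPM of the 8 tested CCT subunit genes per library (points; dashes and bars are mean ± SD, n = 4). The static libraries span shares from 1.20% to 3.98% and the shear stress libraries from 0.098% to 0.223%, while the CCT genes lie within 2.27-fold of each other in each of the 8 libraries.

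Hspa13, which encodes a microsomal HSP70, fell by 0.45 ± 0.09 on the log2 scale (adjusted p = 0.00338), from 45.5 ± 3.51 to 33.3 ± 1.27 CPM, and was not called with library totals (-0.23, adjusted p = 0.095). Hspa14, whose protein acts at the ribosome, was at 20.2, 19.5, 19.2 and 19.4 CPM in static and 25.5, 25.5, 25.3 and 25.5 CPM in shear stress libraries. The groups were narrow and apart, and it rose by 0.38 ± 0.09 (adjusted p = 0.00611). The mitochondrial Hspa9 was at 1126 ± 92.1 and 944 ± 95.1 CPM (-0.25 ± 0.11, adjusted p = 0.0726, and 0.00548 with the replicate block). Hspa2, at 3.93 ± 1.21 and 2.9 ± 0.286 CPM, was not called (-0.44 ± 0.25, adjusted p = 0.18), but was without static replicate 4 (-0.62, adjusted p = 0.0362). Hspa1l, at 0.741 ± 0.138 and 1.26 ± 0.36 CPM, was not called either (0.77 ± 0.31, adjusted p = 0.0627), but was without shear stress replicate 1 (0.91, adjusted p = 0.0495).

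The HSP110 genes, whose proteins recharge HSP70, split. Hspa4l (chromosome 3, 40744500 to 40796103) was at 182, 439, 433 and 269 CPM in static and at 42.0, 64.7, 86.1 and 50.7 CPM in shear stress libraries. Its paralog Hspa4 (chromosome 11, 53259814 to 53300479) was at 379, 418, 360.3 and 352 CPM in static and at 684, 604, 655 and 780.5 CPM in shear stress libraries. Neither gene's groups overlapped, and they moved in opposite directions, by -2.44 ± 0.33 for Hspa4l (adjusted p = 0.000512) and 0.85 ± 0.10 for Hspa4 (adjusted p = 0.000257). Per unit of length, in TPM (a level corrected for transcript length and library size), Hspa4 and Hspa4l stood at 106 ± 14.9 and 91.0 ± 38.8 TPM in static and at 224 ± 16.4 and 21.5 ± 7.74 TPM in shear stress libraries. The paralogs thus overlapped in TPM over the static libraries and were far apart over the shear stress libraries. Hsph1, the third HSP110 gene, was at 104, 130, 95.0 and 98.5 CPM in static and at 68.3, 75.7, 45.2 and 60.9 CPM under shear stress (-0.77 ± 0.17, adjusted p = 0.00418).

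**Figure D4:**
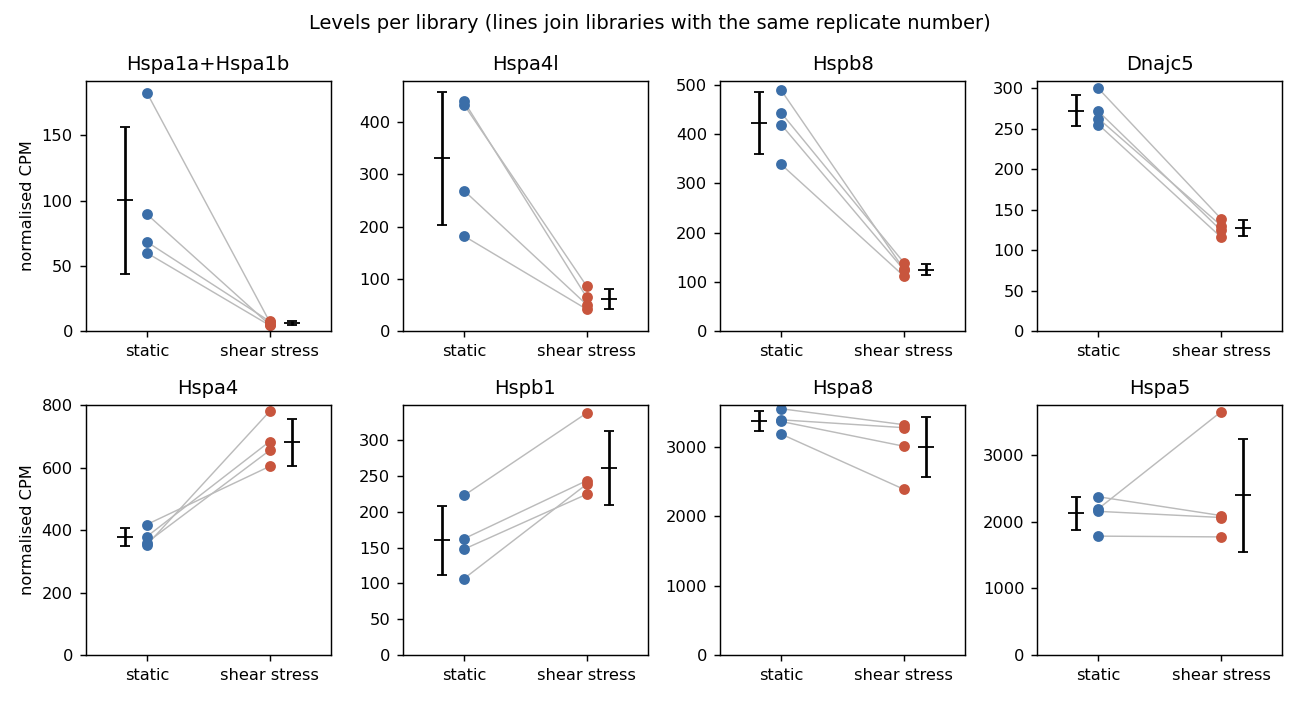
Normalised CPM (vertical axes from 0) of 8 entries in each static (blue) and shear stress (red) library, with grey lines between libraries of the same replicate number and dashes and bars for mean ± SD (n = 4). Hspa1a plus Hspa1b, Hspa4l, Hspb8 and Dnajc5 fall and Hspa4 and Hspb1 rise in all 4 pairs, whereas Hspa5 is raised in shear stress replicate 1 alone.

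BAG proteins also release clients from HSP70. Of 6 tested BAG genes, 3 fell, 1 rose and 2 were not called. Bag3 (chromosome 7, 128523583 to 128546981), whose protein links HSP70 and HSPB8 to autophagy of aggregates, was at 135, 158, 173 and 159 CPM in static and at 93.6, 96.2, 117 and 98.9 CPM in shear stress libraries. The groups did not overlap, and it fell by 0.62 ± 0.11 on the log2 scale (adjusted p = 0.00142). Bag6, which acts in the sorting of membrane proteins, fell by 0.35 ± 0.08 (adjusted p = 0.00458, and 0.303 with library totals). Bag4 fell by 0.69 ± 0.22 (adjusted p = 0.0273, but 0.101 with library totals and 0.0561 with upper quartile factors). Bag5 was the member that rose, by 0.54 ± 0.13 (adjusted p = 0.00604), from 10.9 ± 0.722 to 15.9 ± 1.8 CPM. Bag1, the most abundant of the class in TPM (110.2 ± 12.6 and 123 ± 16.8 TPM), was at 95.9 ± 8.41 and 91.2 ± 6.97 CPM (adjusted p = 0.554).

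J proteins fall into classes A, B and C by how much of the bacterial ancestor they keep. In class A, the closest to it, 1 of 4 tested genes rose and 1 fell. Dnaja1, a partner of cytosolic HSP70 (chromosome 4, 40722468 to 40734965), was at 288, 443, 366 and 338 CPM in static and at 181, 227, 181 and 206 CPM in shear stress libraries. Without overlap between groups, it fell by 0.85 ± 0.14 on the log2 scale (adjusted p = 0.00104). The related cytosolic Dnaja2 was at 232 ± 20.6 and 206 ± 11.1 CPM (-0.17 ± 0.09, adjusted p = 0.151), and the mitochondrial Dnaja3 rose from 57.4 ± 3.46 to 76.5 ± 7.54 CPM (0.41 ± 0.10, adjusted p = 0.007). In class B, 2 of 9 fell and 1 rose. Dnajb1, the classical HSP40 partner of inducible HSP70, was at 41.5, 56.7, 54.6 and 46.3 CPM in static and at 31.5, 43.5, 33.5 and 41.7 CPM under shear stress. These groups overlapped, and its call (-0.41 ± 0.14, adjusted p = 0.0407) was lost with library totals (-0.18, adjusted p = 0.372). Dnajb6, which holds back aggregation, was at 147 ± 20.5 and 120.2 ± 8.9 CPM (adjusted p = 0.0633, and 0.00842 with the block), and its direction reversed with log2(FPKM + 1) (0.23). Dnajb5 rose from 3.17 ± 0.589 to 5.87 ± 1.81 CPM, with overlap between groups (0.89 ± 0.25, adjusted p = 0.0169).

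Class C holds J proteins with special tasks. Of its 25 tested genes, 9 rose and 4 fell, beside 24.9% and 23.7% of all tested genes. Dnajc5 (chromosome 2, 181518858 to 181552886), the gene of the cysteine string protein of secretory vesicles, was at 300, 271, 263 and 255 CPM in static and at 139, 124, 130 and 116 CPM in shear stress libraries. It was lower in all 4 same-numbered pairs, with narrow groups that did not overlap (-1.10 ± 0.09, adjusted p = 5.67e-05). Dnajc12, whose protein attends aromatic amino acid hydroxylases such as the phenylalanine hydroxylase of liver, was at 14.2, 5.24, 17.7 and 8.34 CPM in static and at 3.41, 2.04, 6.92 and 3.79 CPM under shear stress. Its groups overlapped although it fell in all 4 same-numbered pairs (-1.49 ± 0.45, adjusted p = 0.0218). Dnajc7 and Dnajc22 fell by 0.35 and 0.34 on the log2 scale, and neither was called with library totals or upper quartile factors (adjusted p between 0.0933 and 0.413).

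The larger rises of class C were in genes of low abundance. Dnajc17 (chromosome 2, 119172500 to 119208838), which is linked to splicing, was at 2.77, 1.86, 1.52 and 2.28 CPM in static and at 7.35, 6.52, 6.46 and 6.45 CPM under shear stress (1.66 ± 0.21, adjusted p = 0.000303). Dnajc30 (chromosome 5, 135064206 to 135065365), a mitochondrial J protein gene, was at 6.53, 6.40, 4.32 and 7.86 CPM in static and at 19.4, 19.2, 15.003 and 16.0 CPM under shear stress (1.46 ± 0.19, adjusted p = 0.000323). Both genes share exon bases with a more abundant neighbour on the opposite strand, 26.2% of them in Dnajc30 with Bud23 (0.55, adjusted p = 0.00168) and 8.26% in Dnajc17 with Zfyve19 (0.40, adjusted p = 0.0163). Other named members share exon bases with neighbours on the opposite strand too, such as Tcp1 with Acat3 (11.4%), Hspe1 with the more abundant Hspd1 (7.6%) and Dnaja1 with Smu1 (7.05%). Whether the counting used strand is not given in the sources used here, so reads of such partners cannot be told apart. Dnajc11, a gene of the mitochondrial membrane, rose from 55.4 ± 3.07 to 72.1 ± 7.65 CPM (adjusted p = 0.0118). Dnajc1, Dnajc4, Dnajc8, Dnajc10, Dnajc16 and Dnajc24 rose by between 0.28 and 0.68 on the log2 scale. Dnajc15, of the mitochondrial import motor, led the uncalled class C genes in TPM (67.9 ± 4.76 and 79.8 ± 5.22 TPM) and was at 20.3 ± 1.09 and 20.7 ± 2.11 CPM (adjusted p = 0.876).

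Of the ER members, Hspa5 was high in 1 library. Hspa5, which encodes BiP, the HSP70 of the ER, was at 2194, 2154, 2373 and 1782 CPM in static and at 3648, 2061, 2090.5 and 1770.4 CPM under shear stress. Shear stress replicate 1 was high and the other shear stress libraries lay among the static ones or, in replicate 4, just below them (0.17 ± 0.22, adjusted p = 0.537, and -0.09 without shear stress replicate 1). Hsp90b1, the ER form of HSP90, was at 725, 581, 999 and 731 CPM in static and at 1307, 916, 729.9 and 626 CPM under shear stress, highest in shear stress replicate 1 and next in static replicate 3. Dnajc3, whose protein assists BiP, had its highest shear stress value in the same library, at 269 CPM, but this lay close to 267 CPM in static replicate 3. Dnajb9 (chromosome 12, 44205897 to 44210068), which brings misfolded proteins to BiP, was apart from these: it was at 124, 139, 121 and 86.8 CPM in static and at 60.9, 65.4, 64.7 and 58.9 CPM under shear stress and fell by 0.91 ± 0.14 on the log2 scale (adjusted p = 0.00066). Dnajc10, an ER reductase gene, rose from 58.4 ± 3.99 to 74.3 ± 2.96 CPM (0.35 ± 0.09, adjusted p = 0.00832).

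The cytosolic HSP90 proteins finish the folding of kinases and steroid receptors. None of the 3 HSP90 genes, with the ER form Hsp90b1 among them, was called by edgeR. Of the 3, 1 (Hsp90ab1) was under an unadjusted p of 0.05, and DESeq2 called the same 1 (adjusted p = 0.0294). The constitutive Hsp90ab1 was at 2791, 3750.3, 3024 and 3228 CPM in static and at 2438, 2885, 2369 and 2695 CPM in shear stress libraries. The groups overlapped, but each shear stress library was below the static library of the same number (-0.30 ± 0.12, adjusted p = 0.062, and 0.00139 with the replicate block). The stress-inducible Hsp90aa1 was at 790 ± 105 and 752 ± 63.1 CPM (-0.07 ± 0.12, adjusted p = 0.637), and its direction reversed with library totals (0.15).

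The small heat shock protein genes moved both ways. Of 7, 4 were tested, and of these 2 rose, 1 fell and 1 was not called. Hspb8 (chromosome 5, 116408491 to 116422864), the partner of BAG3, was at 443, 489, 419.5 and 339 CPM in static and at 139, 126, 124 and 112 CPM in shear stress libraries, and fell by 1.75 ± 0.13 on the log2 scale (adjusted p = 4.43e-05). Hspb1 (chromosome 5, 135887919 to 135889563), the HSP27 gene whose protein also guards actin filaments, was at 148, 162, 107 and 223 CPM in static and at 225, 244, 239 and 338 CPM under shear stress. The lowest shear stress library lay just above the highest static one, and each pair of the same number rose (0.71 ± 0.22, adjusted p = 0.0235). In TPM, Hspb8 and Hspb1 overlapped in static libraries, at 339 ± 66.9 and 316 ± 97.0 TPM, and were apart under shear stress, at 117 ± 11.4 and 599 ± 112 TPM. Hspb11, whose protein is a subunit of intraflagellar transport, rose from 4.31 ± 1.19 to 6.66 ± 0.821 CPM (adjusted p = 0.041). Hspb6 was at 14.8 ± 5.5 and 16.2 ± 3.28 CPM (adjusted p = 0.693).

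The CCT complex, which folds actin and tubulin, has 8 tested subunit genes here, of which 1 rose and none fell. With the replicate block 3 rose, and 5 with library totals. Of all tested genes, 24.9% rose in the main fit, 30.1% with the block and 35.4% with library totals. Cct6a (chromosome 5, 129787356 to 129846443) was at 164, 205, 168 and 178 CPM in static and at 237, 247, 215 and 246 CPM under shear stress (0.40 ± 0.10, adjusted p = 0.00773). The other 7 had log2 fold changes between -0.14 and 0.17. Tcp1 was at 321 ± 48.1 and 328 ± 32.6 CPM (adjusted p = 0.873) and Cct5 at 309 ± 28.5 and 300.3 ± 3.92 CPM (adjusted p = 0.728). In TPM the subunits lay within 1.93-fold to 2.27-fold of each other in static libraries and within 1.67-fold to 1.85-fold in shear stress libraries, with Cct5 or Cct2 highest. The mitochondrial chaperonin genes Hspd1 (HSP60) and Hspe1 (HSP10), which lie head to head, were at 431 ± 43.7 and 83.6 ± 7.07 CPM in static and at 396 ± 25.9 and 91.3 ± 12.1 CPM in shear stress libraries. Neither was called (adjusted p = 0.329 and 0.384), and with library totals Hspe1 was (0.36, adjusted p = 0.0401).

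Added up in TPM, the 87 entries made up 1.09% of all transcripts in static and 1.19% in shear stress libraries. TPM carries no TMM scaling. With library totals, also without it, the median log2 fold change of all tested genes was 0.216, so higher sums are not set apart from that shift. HSP70 genes summed to 3996 ± 302 and 4397 ± 611 TPM, with Hspa8 holding 55.1% of the class and shear stress replicate 1 highest at 5182 TPM. HSP90 genes summed to 2522 ± 372 and 2617 ± 311 TPM, and CCT genes to 1297 ± 174 and 1616 ± 146 TPM (SD, n = 4). These sums followed a few abundant genes, and the genes that fell most added little to them: Hspa1a and Hspa1b together were at 48.2 ± 25.9 TPM in static libraries.

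Too few counts for a test were found for 13 genes. For 12 of them, Cct6b, Cct8l1, Dnajb3, Dnajb7, Dnajb8, Dnajb13, Dnajc5g, Hspa12a, Hspa12b, Hspb2, Hspb7 and Hspb9, the mean was at most 0.296 CPM in either group. The other was Dnajc6, which encodes auxilin, a clathrin uncoating factor. It was at 0.246, 1.10, 0.909 and 0.899 CPM in static and at no more than 0.0578 CPM in any shear stress library, where 3 counts correspond to between 0.179 and 0.185 CPM before TMM scaling.

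The partners of these chaperones were followed in 5 lists that hold none of the genes above. Of 82 tested genes, 11 rose and 19 fell, while 24.9% of all tested genes rose and 23.7% fell. With library totals 23 rose and 8 fell, beside 35.4% and 13.1% of all tested genes. The counts of each list below stand beside the same shares. Among 20 cochaperones of HSP70 and HSP90, 3 rose and 5 fell, with a median log2 fold change of -0.19. Fkbp5, a glucocorticoid-inducible immunophilin, rose 3.36-fold from 18.9 ± 3.74 to 63.6 ± 1.04 CPM (adjusted p = 5.5e-05), while St13, which stabilises the HSP70 cycle, fell 1.44-fold to 198 ± 7.51 CPM (adjusted p = 0.00126). Ttc4 rose 1.41-fold, and Sgta fell 1.35-fold, a call that was lost with library totals (adjusted p = 0.0732). Among 15 prefoldin subunits, CCT partners and tubulin cofactors, 5 rose and 1 fell, with a median of 0.13. The tubulin cofactor gene Tbcc rose 3.95-fold from 3.31 ± 0.806 to 13.1 ± 1.71 CPM and the phosducin-like Pdcl3 rose 1.62-fold to 59.2 ± 6.49 CPM. Uri1 fell 1.27-fold (adjusted p = 0.0467, and 0.45 with library totals).

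Among 19 further ER folding genes, 2 rose, Creld2 (1.92-fold) and Txndc5 (1.5-fold), and 2 fell, Uggt1 (1.28-fold) and the lectin chaperone gene Canx (1.21-fold). The 2 falls were not called with library totals (adjusted p = 0.307 and 0.726). Among 12 mitochondrial chaperones and proteases, 1 rose (Htra2, 1.62-fold) and 3 fell. The falls were in Clpx (1.49-fold), the exchange factor gene Grpel2 (1.59-fold) and Clpb (1.27-fold). With library totals the call of Clpx was kept, and those of Grpel2 and Clpb were lost (adjusted p = 0.0585 and 0.383 by edgeR's test). None of 16 other genes linked to HSF1 rose in edgeR's test and 8 fell, with a median of -0.47, while 23.7% of all tested genes fell. With the replicate block 1 rose and 10 fell, beside 30.1% and 31.0% of all tested genes. With library totals the calls of Hsbp1, Tcf25 and Eef1a1 were lost (adjusted p = 0.426, 0.881 and 0.726). Cryab of the same list was then called higher (0.88, adjusted p = 0.0291). Atf3 of this list is also 1 of the immediate early genes counted further on. Ubb, a polyubiquitin gene induced by heat, was at 2809 ± 474 CPM in static and 1108 ± 226 CPM under shear stress, a 2.53-fold fall (adjusted p = 0.000344). Jmjd6 was at 75.3 ± 9.7 and 40.1 ± 2.26 CPM, a 1.88-fold fall (adjusted p = 0.00024).

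The depth was 15067056 to 17935566 estimated counts in each library. Of 9 hepatocyte markers found in the files, 7 were lower under shear stress, and 3 with library totals. Of all tested genes, 23.7% and 13.1% were lower in these settings. The marker sums were 74675 to 93412 CPM in the static and 51205 to 66089 CPM in the stressed libraries, mostly Alb. The markers Hnf4a (0.13, adjusted p = 0.59) and Cyp2e1 (-0.29, adjusted p = 0.446) were not called in edgeR's test. In bulk samples, fewer cells of a type and less RNA per cell cannot be told apart. Summed markers overlapped between the groups for macrophages (22.6 to 56.2 CPM in static and 16.8 to 56.8 CPM in shear stress libraries, mostly Cd68). Of the 7 macrophage genes found in the files, only Cd68 had enough counts to be tested. The sums also overlapped for endothelial cells (11.9 to 23.8 and 7.24 to 23.0 CPM), stellate cells (5.88 to 12.3 and 6.80 to 9.49 CPM) and cholangiocytes (131 to 1317 and 214 to 1702 CPM, mostly Spp1). Within the endothelial list, Pecam1 fell 5.35-fold (10.02 to 1.87 CPM, adjusted p = 0.00324) and Egfl7 rose 1.82-fold (1.73 to 3.14 CPM, adjusted p = 0.0216), and 4 other tested genes were not called. The B and T cell list, with 3 of 6 genes in the files, summed to 8.33 to 11.1 CPM in static and 0.0577 to 0.626 CPM in shear stress libraries. Both tested genes, Cd79a and Cd79b, fell, and Cd79b made up most of the static sum (mean 8.02 CPM). The third gene found, the B cell marker Ms4a1, had 1 count over all 8 libraries and none in static ones. S100a8, the neutrophil marker found, was at no more than 0.116 CPM. Of 10 immediate early genes, which respond to cell handling as well as to signals, 9 fell, from sums of 2630 to 3376 CPM in static to 1027 to 1197 CPM in shear stress libraries. The summed Hspa1 copies were also lower in the shear stress group, and any part of the immediate early genes in that fall was not tested.

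Calls of 10 of the 34 entries were lost on leaving out at least 1 library. They were Bag4 (adjusted p up to 0.0703), Dnajb1 (0.125), Dnajc12 (0.0589), Dnajc16 (0.139), Dnajc22 (0.0566), Dnajc24 (0.0523), Dnajc4 (0.0531), Dnajc8 (0.0645), Hspb1 (0.0667) and Hspb11 (0.114). For Hspb1 the call was lost without static replicate 1 (0.0568) or shear stress replicate 4 (0.0667). All 10 kept their direction in each such fit. Shear stress replicate 4 was the library whose removal ended most of these calls, all 10 of them, followed by shear stress replicate 1. Without shear stress replicate 4, 20.6% of all tested genes were called higher and 18.5% lower, against 24.9% and 23.7% with all 8 libraries. Lost calls over all tested genes are not given here, so the 10 are no result about the family.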

How the data were processed

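RNA was extracted with TRIzol and sequenced on DNBSEQ, per the labels' protocols. The submitters' processing notes name HISAT, Bowtie2, RSEM and GRCm38 (mm10), while versions, annotation and strand setting were not given in the sources used. The deposited per-library tables give expected counts, FPKM and TPM per gene, per the file headers. Expected counts (9.31% to 10.7% not whole) were rounded, and Hspa1a and Hspa1b were summed. Genes were filtered with filterByExpr, scaled by TMM and tested over all 11746 genes with edgeR 4.0.16 (R 4.3.3) by its quasi-likelihood test, with Benjamini-Hochberg adjustment and a threshold of 0.05. CPM values use TMM scaling, and TPM and FPKM are as deposited. Each standard error was obtained from the size of the log2 fold change and its F statistic.

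The members and lists were chosen with earlier results of these data known. Named genes were 19 fixed entries, up to 4 called members per class and direction by smallest p, the most abundant uncalled member of each class, and the 2 called genes of smallest p per direction in each other list. Other genes in the text (Dnajc3, Dnajc6 and the rest of the called or untested members) were named after their values were seen. The alternatives were DESeq2 1.42.0, library totals, upper quartile factors, no filter, limma 3.58.1 on log2(FPKM + 1) and log2(FPKM + 0.1) with FPKM of at least 1 in at least 4 libraries, a replicate block, the copies kept separate, and leaving out each library.

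Libraries of the same replicate number deviated together from their group means (r = 0.679, 0.642, 0.56 and 0.467 over 8446 genes, at most -0.018 between different numbers), so the numbers pair the libraries. This pairing comes from the data, since the labels give the numbers only. No library repeated another (chi-square per degree of freedom at least 47.7 within a group). The test was checked on simulated data with known changes, of which it missed some, more of the small ones, so an entry that was not called may still differ. The simulated data held far fewer changed genes than were called here and no pairing of libraries. How often the test misses changes in the present data was therefore not measured.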

Additional observations from a re-analysis of the deposited data

Results flagged for a closer look

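In 8 of 126 groups of 4 libraries, 1 library stood apart from the others by Dixon's criterion, and chance flags about 1 group in 20. Hspa5 was at 3648 CPM in shear stress replicate 1, against 1770.4 to 2090.5 CPM in the other shear stress libraries. Hspb1 was at 338 CPM in shear stress replicate 4, against 225 to 244 CPM. Dnajc17 was at 7.35 CPM in shear stress replicate 1, against 6.45 to 6.52 CPM, and Dnajc10 at 78.7 CPM in shear stress replicate 4, against 72.5 to 73.4 CPM. In static libraries, Bag5 was at 11.98 CPM in replicate 3, against 10.4 to 10.6 CPM, and Dnajc11 at 60.0 CPM in replicate 2, against 53.7 to 54.0 CPM. Creld2 was at 55.0 CPM in static replicate 3, against 38.9 to 40.6 CPM. Dnaja2 was the only low one, at 201 CPM in static replicate 4, against 239 to 246 CPM.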

How the results depend on the processing

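Over 16 other settings, comparisons of the named genes kept direction and side of the threshold in 837 cases, lost the call in 80, gained it in 10 and reversed in 32, all 32 in genes that were not called. The number of entries lower was 10 with library totals and with log2(FPKM + 1) and log2(FPKM + 0.1). Without 1 library, 11 to 16 entries were higher and 13 to 18 lower. Of the other pathway genes, 23 were higher and 8 lower with library totals and both FPKM settings, and 19 and 10 with upper quartile factors. Without 1 library, 10 to 12 of them were higher and 11 to 19 lower. The median of the members was 0.185 with library totals, 0.0975 with upper quartile factors, 0.161 with log2(FPKM + 1) and 0.173 with log2(FPKM + 0.1), following the shift of all genes. The share of the inducible copies differed by -2.28 to -1.35 percentage points without 1 library, at p = 0.0571 by the exact permutation test, the smallest that 3 against 4 allow. In an alternative chosen after seeing the data, exchange within replicate pairs (a replicate block), the same difference of -1.97 had p = 0.125 by the exact permutation test. With the replicate block, members counted 19 higher and 24 lower and other pathway genes 14 and 27. All 34 edgeR calls were kept, and 9 were added.

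Reversed values, in the order library totals, log2(FPKM + 1) and log2(FPKM + 0.1), were 0.054, 0.040 and 0.040 for Hspa8, 0.15, 0.16 and 0.16 for Hsp90aa1, 0.10, 0.099 and 0.10 for Hspd1, 0.15, 0.14 and 0.15 for Bag1, 0.18, 0.18 and 0.18 for Cct5, and 0.054, 0.053 and 0.053 for Dnaja2. For Dnajb6 they were 0.23 and 0.23 with the FPKM settings. With upper quartile factors they were 0.067 for Hsp90aa1, 0.014 for Hspd1, 0.065 for Bag1 and 0.099 for Cct5. Values also reversed on leaving out 1 library, within ranges of -0.086 to 0.29 for Hspa5 (lowest without shear stress replicate 1), -0.13 to 0.015 for Hsp90aa1 and -0.089 to 0.0062 for Cct5 (both highest without static replicate 2), -0.054 to 0.12 for Tcp1 (-0.054 without static replicate 1 and -0.033 without shear stress replicate 2), -0.024 to 0.077 for Dnajc15 (-0.024 without shear stress replicate 4 and -0.0013 without static replicate 3) and -0.039 to 0.38 for Hspb6 (lowest without static replicate 2). The cause was not tested. Estimated counts of 15067056 to 17935566 per library left 13 members with too few counts to test.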
